A study of Mus musculus with 21 samples.

Results

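Lymph node and bone marrow cells that both carry the Aire reporter signal were compared in heterozygous knock-in mice. The 6 libraries, 3 from each tissue, were chosen by their titles from 21 in the series: AGF+ dendritic cells (DCs) of genotype AGF-KI/+ (KI/+) from lymph node, and AGF+ DCs of the same genotype from bone marrow. All mice were 6 weeks old, C57BL/6 and, per the labels, male, and every library comes from animals with the AGF-KI allele, so no animal without the reporter stands beside them. Lymph node cells had been enzymatically digested and gated as CD45+CD11c+MHCII+ before the split by AGF. Bone marrow AGF+ cells were gated as B220- and CD24+, with CD11b absent or low. Because the gates differ, tissue and sort gate cannot be told apart in any difference given here. The 6 libraries of AGF+ cells from AGF-KI/- mice (AireKO) from the same tissues, and 3 lymph node AGF- plus 3 bone marrow total DC libraries from KI/+ mice (gated B220-CD11c+MHCII+ in marrow), serve as the other cells in which the tissue difference was measured. The labels state independent biological replicates and do not say whether animals were pooled.

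Aire is a transcriptional regulator best known for its part in the display of tissue antigens by medullary thymic epithelium, and rarer Aire-expressing cells with features of mature DCs are found outside the thymus. DCs arise from marrow progenitors under Flt3 ligand, take up antigen as immature conventional DCs of type 1 (cDC1) or type 2 (cDC2), and on maturation raise CCR7, costimulatory molecules and a set of chemokines. Plasmacytoid DCs are a separate branch that carries Toll-like receptors for nucleic acids and shares several genes with the early B lineage.

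Each of the 6 libraries held 4263663 to 6055097 counts, so a count of 0 in a library allows a level of up to 0.458 to 0.657 CPM, the count scaled to a common total, here with effective library sizes from the trimmed mean of M values (TMM). These limits and the counting intervals below cover counting error only. Mitochondrially encoded genes took 0.984% to 1.31% of counts in lymph node and 2.54% to 2.84% in marrow, and antigen receptor segments 0.0152% to 0.0200% and 0.0589% to 0.0749%. In both tissues the library numbered 2 stood apart by Xist, at 3838 CPM in lymph node and 2697 CPM in marrow, against the male label. The same held in all 7 groups, where Xist was at 2028 to 4008 CPM in the library numbered 2 and at 31.2 CPM or less in the others. For AGF+ KI/+ cells, list counts that move by over 1.5 times without the libraries numbered 2 are also given without them. In bulk RNA, fewer cells of a type and less RNA per cell cannot be told apart.

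Aire itself, on chromosome 10 (78030022 to 78043610, minus strand, GRCm38 with GENCODE vM21), was measured at similar levels in both tissues. It stood at 132, 99.0 and 112 CPM in lymph node and at 116, 109 and 79.6 CPM in marrow, and the groups overlap. The log2 fold change, written here as lymph node minus marrow with its standard error (SE), was 0.17 ± 0.17 (edgeR quasi-likelihood test, adjusted p = 0.40). Means were 114 ± 16.7 CPM in lymph node and 101 ± 19.2 in marrow (SD, n = 3), against 14.4 ± 0.488 in lymph node AGF- cells and 1.02 ± 0.236 in marrow total DCs. In AireKO AGF+ cells the mean was 25.2 ± 2.10 CPM in lymph node and 14.5 ± 4.48 in marrow. Every AGF+ KI/+ library was above every library of the other groups. Beside AGF- cells and total DCs, the sort on the Aire reporter selects for this.

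Beside that similar level of Aire, differences between the tissues were widespread. Of 17265 genes tested, 9365 passed an adjusted p of 0.05, which is 54.2% of those tested. Of these, 4694 (27.2%) were higher in lymph node and 4671 (27.1%) were higher in marrow, and the median log2 fold change over all genes was 0.04. At least 4-fold differences were found in 923 genes towards lymph node and 1321 towards marrow. These shares are the background against which each list below is read, and no list was tested as a set.

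The largest differences towards marrow named a DNA polymerase of the lymphoid lineage, a cytotoxic granule protease, a chemokine and a chemokine receptor. Dntt, the terminal transferase that adds bases at antigen receptor joins, had 0 counts in the 3 lymph node libraries and stood at 55.7, 97.4 and 105 CPM in marrow, at least 507-fold higher over the group's floor of 3 counts. Gzmb, the protease granzyme B, was also at 0 in lymph node, with 93.1, 60.5 and 45.1 CPM in marrow, at least 379-fold higher. Neither gene has overlapping groups, which the rule for naming required. Ccl24, an eosinophil attractant, stood at 0.158, 0.458 and 0.219 CPM in lymph node and at 254, 233 and 186 CPM in marrow (log2 fold change -9.49 ± 0.43, adjusted p = 2.3e-12). Ccr4, the receptor for Ccl17 and Ccl22, had 1 library with a count in lymph node, at 0.158 CPM, and 67.3, 48.8 and 50.8 CPM in marrow, a ratio of 964 with a 95% counting interval of 173 to 38132. The other 8 of the 12 were Klk1b11, Krt24, Ccn3, Calcb and Slc7a2, all at 0 in lymph node and at least 277-, 238-, 217-, 215- and 82.7-fold higher in marrow, and Psg17, Nfasc and Dmbt1, with ratios of 854 (interval 236 to 7055), 577 (197 to 2800) and 577 (103 to 22844). Nfasc (neurofascin, an adhesion protein) and Psg17 were high in marrow AGF+ cells and near 0 in marrow total DCs, at 100 ± 24.4 and 98.2 ± 8.53 CPM against 0.0685 ± 0.119 and 1.09 ± 0.835 (SD, n = 3). Klk1b11, Ccl24 and Slc7a2 went the other way, with 335 ± 102, 693 ± 113 and 108 ± 19.7 CPM in total DCs, above the AGF+ means of 48.1, 224 and 14.9 CPM.

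Towards lymph node, the largest difference with reads in both tissues was in Ankrd34a, an ankyrin repeat gene. It stood at 121, 147 and 148 CPM in lymph node and at 1.02, 0 and 0.179 CPM in marrow (log2 fold change 8.41 ± 0.44, adjusted p = 1.2e-11), and at 28.2 ± 6.61 CPM in lymph node AGF- cells. Ehf, an ETS family transcription factor, had 19.1, 10.1 and 19.7 CPM in lymph node and 0 counts in marrow, at least 83.0-fold higher. Cntn1 (contactin, an adhesion protein of neurons) had 14.6, 20.4 and 17.5 CPM against a count in 1 marrow library, a ratio of 275 (interval 49.0 to 10902). The remaining rises were at lower levels: Lyz1, Bank1, Cd209d, Adgrl3, Cd209b and Sirpb1a had no counts in marrow and were at least 50.0-, 36.9-, 26.1-, 21.3-, 20.1- and 19.2-fold higher, and Abca9, Skint3 and Gpr141b had ratios of 125, 99.8 and 92.6. Apart from Ankrd34a and Cntn1, these genes had higher means in lymph node cells without the reporter signal. The rule for naming asks for a mean log2 CPM of 3 over all 21 libraries. A gene low in AGF+ cells of both tissues could thus be named only through other libraries, so the rule favours this order. Ehf averaged 60.9 ± 5.04 CPM in AGF- cells against 16.3 ± 5.42 in AGF+ cells, Cd209d 83.5 ± 4.84 against 5.04 ± 0.389, Sirpb1a 82.6 ± 5.93 against 3.75 ± 0.764, and Bank1 75.9 ± 36.3 against 6.91 ± 4.35 (SD, n = 3). Ankrd34a and Cntn1 stood at 139 ± 15.6 and 17.5 ± 2.94 CPM in AGF+ cells and 28.2 ± 6.61 and 11.4 ± 6.71 in AGF- cells. Reads of Lyz1, Cd209b, Cd209d, Sirpb1a, Klk1b11, Psg17, Gzmb and Gzma can be shared with close paralogs, so their values are uncertain to that extent.

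**Figure D1:**
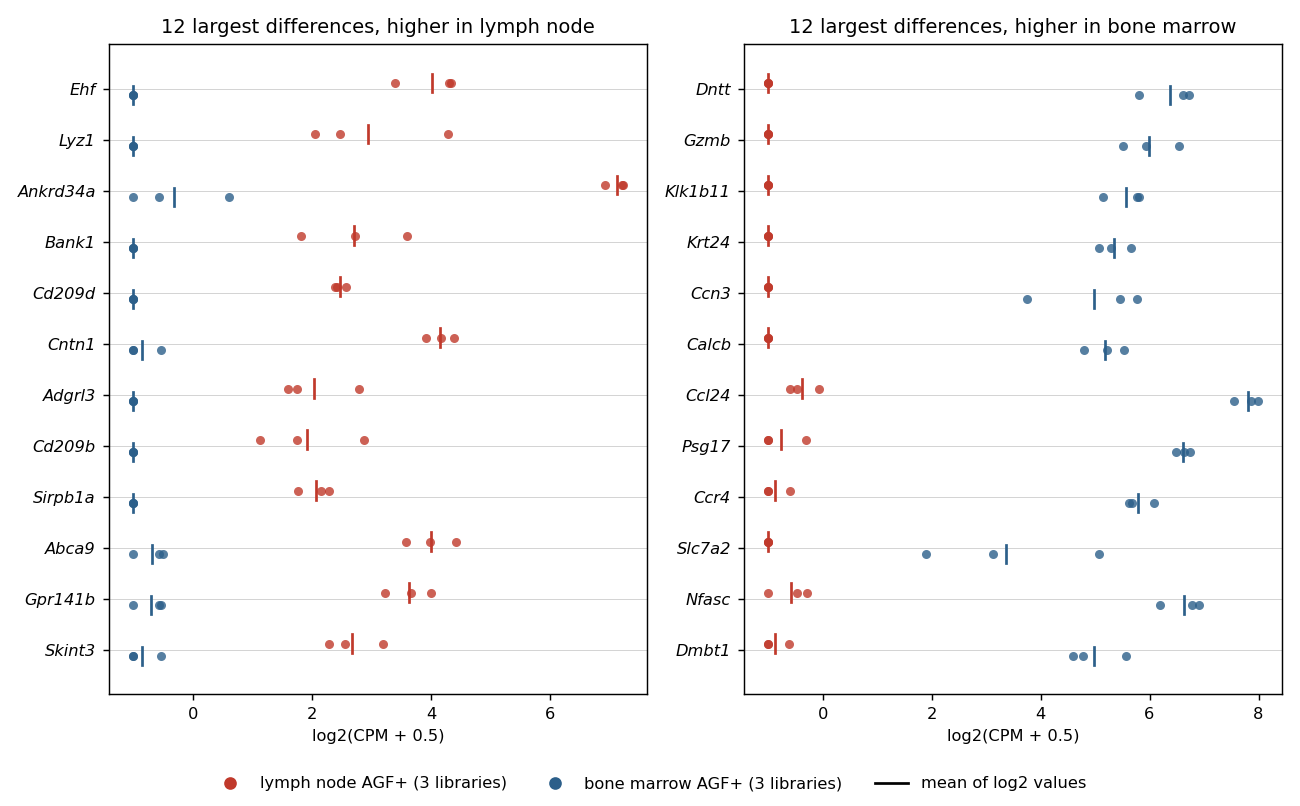
Levels of the 12 largest rises and 12 largest falls in each of the 6 libraries, on a log2(CPM + 0.5) axis, with the mean of the log2 values as a bar. No gene has overlapping groups, which the rule for naming required, and most of the lower groups sit at 0 counts.

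Genes of cell division were far higher in marrow, without an exception in the G2 and M phase list. All 26 of its members passed towards marrow, beside 27.1% of all genes, with a median log2 fold change of -4.05, and 23 of 24 S phase members did so, with a median of -1.94. Top2a, the topoisomerase that untangles chromosomes, stood at 16.1, 24.6 and 14 CPM in lymph node and at 400, 502 and 807 CPM in marrow (-4.95 ± 0.26, adjusted p = 1.2e-11). Cenpf, a kinetochore protein, was at 1.42, 1.37 and 1.97 against 69.4, 75.7 and 124 CPM (-5.83 ± 0.34), and Ccnb2, a mitotic cyclin, at 2.37, 1.68 and 1.53 against 43.6, 51.5 and 68.4 CPM (-4.84 ± 0.25). Ndc80, which holds microtubules at the kinetochore, differed by -3.98 ± 0.24. Among the S phase genes, Rrm2 and Tyms, which make deoxynucleotides, differed by -4.36 ± 0.32 and -2.73 ± 0.18, and the replication helicase subunit Mcm6 by -2.28 ± 0.18. Marrow replicate 3 was the highest of its group for Top2a, Cenpf, Ccnb2 and Ndc80. DCs of the other sorts differed the same way but by less: there the G2 and M list had 25 of 26 members towards marrow with a median of -1.61, and for 25 of the 26 the difference between the tissue differences itself passed (adjusted p under 0.05, 21% of all genes called in either direction).

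Promoters of the G2 and M genes share a sequence feature that the list was not built from. The cell cycle homology region, searched as TTTGAA or TTCGAA on both strands in RefSeq promoter windows of 300 bases (250 before and 50 after a start), was found in 18 of 23 windows of 22 matched genes (78.3%). It was found in 14.6% of the windows of the genes tested, in 19% of the S phase windows, in 21% of those of genes at least 4-fold higher in marrow and in 16.9% of those at least 4-fold higher in lymph node. The CCAAT box was found in 82.6% of the G2 and M windows and in 37.3% of those of the genes tested. Both motifs were added after the list's values were seen, and a match is a description of the letters only. The upstream bases of 3 members are printed because they carry these letters close to the start, in 5′ to 3′ direction of the gene with the homology region in capitals. They come from RefSeq on GRCm38.p6 and stop before the first annotated transcript: Cdc20, chr4:118437353-118437593, minus strand; Cdk1, chr10:69352939-69353162, minus strand; Top2a, chr11:99024190-99024439, minus strand.
Cdc20: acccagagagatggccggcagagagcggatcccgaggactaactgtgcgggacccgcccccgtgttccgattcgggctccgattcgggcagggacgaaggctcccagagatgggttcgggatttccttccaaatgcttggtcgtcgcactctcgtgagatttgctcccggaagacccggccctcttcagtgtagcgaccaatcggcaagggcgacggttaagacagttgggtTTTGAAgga
Cdk1: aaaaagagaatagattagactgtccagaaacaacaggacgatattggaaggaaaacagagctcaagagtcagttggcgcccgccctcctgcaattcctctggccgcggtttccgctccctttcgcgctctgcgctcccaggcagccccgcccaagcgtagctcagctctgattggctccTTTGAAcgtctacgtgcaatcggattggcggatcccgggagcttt
Top2a: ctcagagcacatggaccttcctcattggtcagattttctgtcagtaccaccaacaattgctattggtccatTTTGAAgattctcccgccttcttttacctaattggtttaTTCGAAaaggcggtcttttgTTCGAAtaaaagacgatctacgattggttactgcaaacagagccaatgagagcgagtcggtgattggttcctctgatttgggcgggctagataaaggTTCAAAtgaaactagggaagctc
In Cdc20 the match began 18 bases before the RefSeq start, and in Top2a the 4 matches began 179 to 23 bases before it. Cdc20, the activator of the anaphase promoting complex, stood at 3.32, 1.98 and 2.63 CPM in lymph node and at 31.7, 38.8 and 46.7 CPM in marrow (-3.88 ± 0.32). Cdk1, the mitotic kinase, stood at 4.43, 5.64 and 3.29 against 48.1, 53.4 and 82.3 CPM (-3.75 ± 0.27). Both were chosen for printing after their values were seen.

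Energy and biosynthesis genes were also mostly higher in marrow. Glycolysis had 14 of 16 tested members towards marrow and 2 towards lymph node, with a median log2 fold change of -1.53. Pgk1, a payoff enzyme of that pathway, stood at 16.6, 18.3 and 17.3 CPM in lymph node and at 188, 164 and 193 CPM in marrow (-3.38 ± 0.21, adjusted p = 1.2e-10), and Tpi1, Eno1 and Pkm differed by -2.89 ± 0.22, -2.49 ± 0.21 and -2.11 ± 0.16. Cholesterol synthesis had 18 of 21 members towards marrow, 2 towards lymph node and a median of -1.23, led by Idi1 at 12.2, 13 and 9.42 against 84.3, 96.6 and 146 CPM (-3.23 ± 0.27). Sqle and Hmgcs1, enzymes of the same route, differed by -2.33 ± 0.19 and -2.02 ± 0.18. The 10 mitochondrially encoded genes tested were all higher in marrow (median -1.78), while 13 of 24 nuclear respiratory chain genes were (1 towards lymph node, 0 without the libraries numbered 2, with DESeq2 size factors or with length and GC offsets, median -0.55). In ribosome biogenesis and Myc genes, 11 of 18 were towards marrow and 2 towards lymph node, with a median of -0.97. The latter count was 0 without the libraries numbered 2 and 4 with library size alone. In the other DCs glycolysis had 14 of 16 members towards marrow, with a median of -1.68, cholesterol synthesis 16 of 21 with -1.05, and the mitochondrial genes 10 of 10 with -1.57. Ribosome biogenesis and Myc genes had 6 of 18 towards marrow there and 3 towards lymph node, with a median of -0.32. For 4 of the 18 the difference between the tissue differences passed, each towards marrow in AGF+ cells. That is close to the share of all genes called in either direction (21%). For the 10 mitochondrial genes none of the differences between the tissue differences passed.

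**Figure D2:**
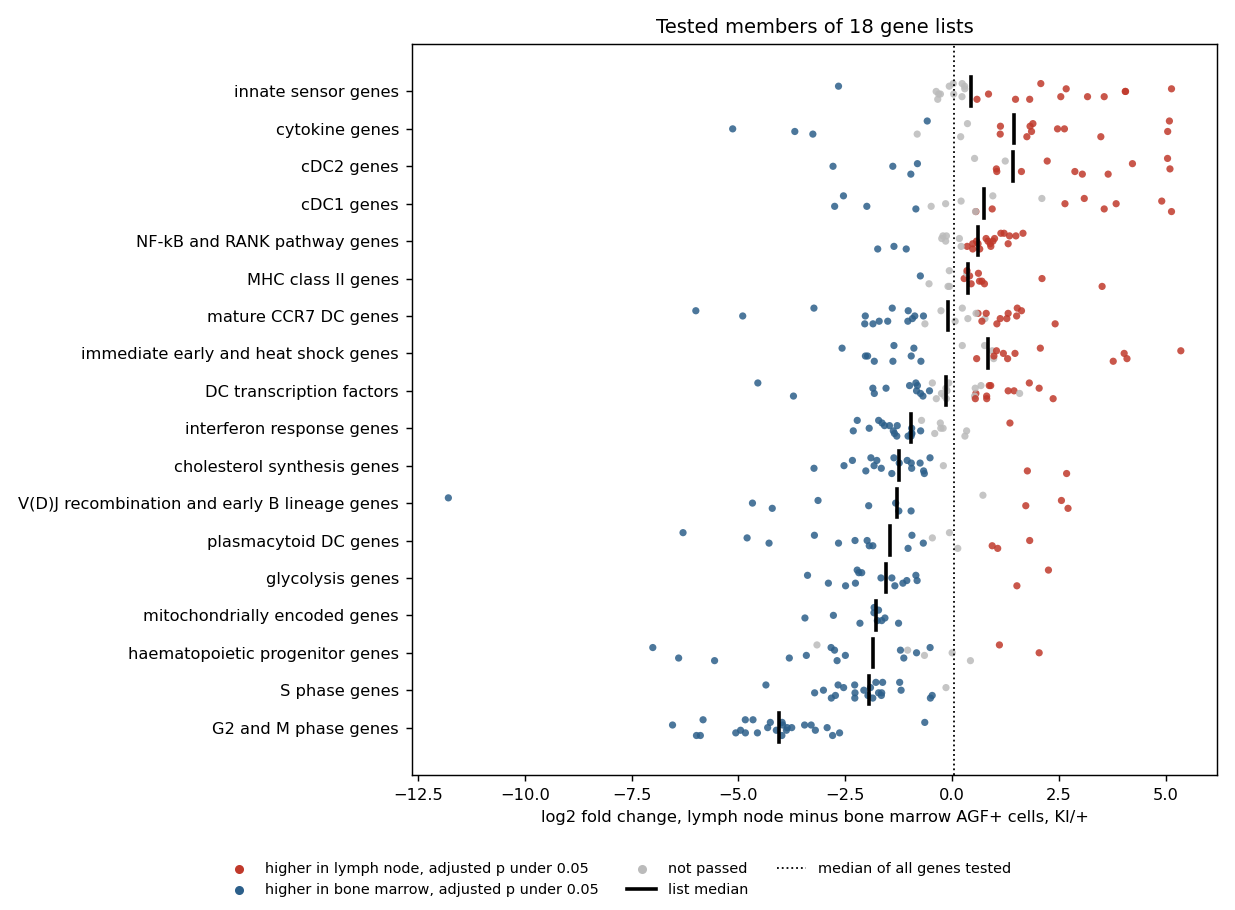
Log2 fold change of each tested member of 18 lists, lymph node minus marrow, with list medians as black bars and the median over all genes as a dotted line. The G2 and M phase list lies wholly towards marrow with a median of -4.05, while the mature CCR7 DC list is split on both sides of 0.

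Genes of mature CCR7+ DCs were split between the tissues, with 14 of 32 members towards marrow, 11 towards lymph node and a median of -0.09, which was 0.07 with library size alone (13 in each direction) and -0.31 with length and GC offsets. The 3 largest differences were towards marrow. Ccl17, which attracts CCR4+ cells, stood at 7.75, 5.80 and 9.86 CPM in lymph node and at 437, 519 and 519 CPM in marrow (-6.00 ± 0.36, adjusted p = 5.9e-11). Pdcd1lg2, which encodes the PD-1 ligand PD-L2, was at 11.6, 8.54 and 7.23 against 322, 251 and 253 CPM (-4.90 ± 0.20). Ccl22, the partner chemokine of Ccl17, was at 329, 151 and 327 against 2568, 2558 and 2451 CPM (-3.23 ± 0.37), and Cd83, a maturation marker, differed by -1.85 ± 0.25. Both chemokine genes were thus abundant in marrow AGF+ cells together with Ccr4, the gene of their receptor, which was almost at 0 in lymph node. Ccl5, a T cell attractant, went towards lymph node with 386, 151 and 394 CPM against 84.5, 53.6 and 36.5 (2.42 ± 0.35). Ccr7, the homing receptor that names the list, stood at 462, 228 and 327 CPM in lymph node and 1218, 914 and 753 CPM in marrow (-1.50 ± 0.31, adjusted p = 4.2e-04), while Relb, an NF-kB subunit needed for DC maturation, stood at 819, 527 and 640 against 314, 274 and 209 CPM (1.32 ± 0.25, adjusted p = 1.8e-04). Ccr7 and Relb were chosen after their values were seen. Lymph node replicate 2 was the lowest of its group for Ccl17, Ccl22, Ccl5, Ccr7 and Relb. The other DCs had Ccl17, Pdcd1lg2 and Ccl22 at -5.64, -4.97 and -2.70, and for none of the 3 did the difference between the tissue differences pass (adjusted p = 0.64, 0.89 and 0.49).

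Antigen presentation genes of class II were mostly towards lymph node by small amounts, and costimulation genes went both ways. Of 16 MHC class II genes, 10 were towards lymph node and 1 towards marrow, with a median of 0.38, and the first count fell to 5 without the libraries numbered 2. With length and GC offsets the counts were 7 and 3, and with the replicate number as a block 2 were towards marrow. March1, the ubiquitin ligase that removes class II from the surface, stood at 32.6, 38 and 35.9 CPM against 4.71, 3.07 and 1.61 (3.52 ± 0.35), and the peptide-loading modulators H2-Oa and H2-Ob differed by 2.11 ± 0.20 and -0.74 ± 0.19. H2-Ab1, a chain of the class II molecule that the lymph node gate uses, was at 1453, 1291 and 1234 against 1049, 1089 and 850 CPM (0.41 ± 0.13, adjusted p = 0.013), which became 0.05 (adjusted p = 0.71) once length and GC content entered the fit as offsets. Its call also ended without lymph node replicate 1 (adjusted p = 0.080) and without marrow replicate 3 (adjusted p = 0.10). The invariant chain gene Cd74 did not pass, at 2700, 2296 and 2512 against 2748, 2605 and 2466 CPM (-0.06 ± 0.11, adjusted p = 0.69), but was lower in lymph node with length and GC offsets (-0.39, adjusted p = 0.0052). Among 21 costimulation and checkpoint genes, 7 were towards lymph node and 10 towards marrow (median -0.10, which was 0.06 with library size alone). The inhibitory receptor Btla stood at 116, 134 and 116 against 3.48, 6.53 and 6.62 CPM (4.45 ± 0.26), Vsir, which encodes the checkpoint protein VISTA, differed by 2.18 ± 0.25, and the adhesion ligand Nectin2 by -2.32 ± 0.19. Icosl, the ligand of ICOS and a neighbour of Aire on chromosome 10, was at 1457, 926 and 1192 against 516, 512 and 512 CPM (1.22 ± 0.20). Of the 14 tested genes of a list drawn up for the Aire locus, which counts Aire itself, 4 were towards lymph node and 5 towards marrow. The median was -0.03 (0.13 with library size alone). The 5 include C1qbp (-1.35), which is not a neighbour of Aire on chromosome 10.

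Sensing and signalling genes were more often towards lymph node. Of 24 innate sensor genes, 12 passed towards lymph node and 1 towards marrow (2 with length and GC offsets, median 0.44). Tlr5, the flagellin receptor, stood at 66.5, 75.2 and 76.9 against 3.48, 4.80 and 4.65 CPM (4.07 ± 0.23), Tlr1, a lipopeptide receptor, at 65.4, 99.0 and 78.0 against 3.48, 5.57 and 5.37 CPM (4.06 ± 0.22), and Tlr11 and Tlr6 differed by 5.14 ± 0.35 and 2.67 ± 0.22. The exception was Tlr7, the receptor for single-stranded RNA, at 3.32, 7.02 and 4.38 against 23.5, 37.1 and 33.3 CPM (-2.66 ± 0.39). Tlr9, its neighbour in function as the receptor for CpG DNA, went the other way, at 286, 209 and 260 against 80.9, 75.3 and 57.8 CPM (1.82 ± 0.18). In the NF-kB and RANK list, 18 of 27 were towards lymph node and 3 towards marrow, with a median of 0.61. Ikbkb, a kinase of the pathway, was at 791, 750 and 800 against 409, 384 and 380 CPM (1.00 ± 0.10). Nfkbiz and the inhibitor gene Nfkbie differed by 1.66 ± 0.20 and 1.35 ± 0.16, and the subunit gene Nfkb1 by -1.36 ± 0.10. Tnfrsf11a, which encodes RANK, a receptor upstream of Aire in the thymus, did not pass, at 316, 233 and 270 against 251, 221 and 254 CPM (0.17 ± 0.19, adjusted p = 0.46), and was chosen after its values were seen. The kB consensus, searched as GGGNNNNNCC on both strands, was in 85.7% of 28 windows of this list and in 65.2% of the windows of the genes tested. It was in 59.6% of the windows of genes at least 4-fold higher in lymph node and 63.5% of those at least 4-fold higher in marrow.

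Cytokine genes followed the same tilt, with 11 of 18 towards lymph node, 4 towards marrow and a median of 1.44. Il18 stood at 10.8, 17.5 and 13.1 CPM against 0.205, 0.576 and 0.358 (5.09 ± 0.45), and Ltb, a subunit of lymphotoxin, at 177, 138 and 184 against 46.5, 51.1 and 36.7 (1.9 ± 0.17). Il6 was opposite, at 1.11, 0.610 and 0.657 against 30.7, 26.9 and 29.3 CPM (-5.13 ± 0.37), as was Il12a, a chain of IL-12, with -3.68 ± 0.39. In the immediate early and heat shock list, whose members respond to handling of tissue, 11 of 24 were towards lymph node and 9 towards marrow. The chaperone gene Hspa1b stood at 44.5, 43.0 and 49.1 CPM in lymph node and 0.819, 1.54 and 0.895 in marrow (5.36 ± 0.63), and the AP-1 genes Fosb and Junb differed by 4.10 ± 0.55 and 2.07 ± 0.21, while Hspa8, a constitutive chaperone, differed by -1.36 ± 0.16. The labels describe an enzymatic digestion of lymph node and none of marrow, and its part in these values was not tested.

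Interferon response genes tilted towards marrow, with 17 of 25 there, 1 towards lymph node and a median of -0.96. Without the libraries numbered 2 the counts were 11 and 2, and with library size alone 2 were towards lymph node. Stat2 and Irf9, which carry interferon signals to the nucleus, and the interferon-induced Ifi27l2a differed by -1.35 ± 0.20, -0.73 ± 0.13 and -2.31 ± 0.39. In the other DCs the list had 8 members towards lymph node and 5 towards marrow. For 11 of 25 the difference between the tissue differences passed, each towards marrow in AGF+ cells, beside 21% of all genes in either direction. The IRF core, searched as GAAANNGAAA on both strands, was in 8 of the list's 21 windows (38.1%) and in 3.30% of the windows of the genes tested, in 5.88% of those at least 4-fold higher in lymph node and 4.04% of those at least 4-fold higher in marrow. The upstream bases of 2 members are printed to show these letters in capitals, from RefSeq on GRCm38.p6: Isg15, chr4:156200819-156201068, minus strand; Ifit1, chr19:34640639-34640870, plus strand.
Isg15: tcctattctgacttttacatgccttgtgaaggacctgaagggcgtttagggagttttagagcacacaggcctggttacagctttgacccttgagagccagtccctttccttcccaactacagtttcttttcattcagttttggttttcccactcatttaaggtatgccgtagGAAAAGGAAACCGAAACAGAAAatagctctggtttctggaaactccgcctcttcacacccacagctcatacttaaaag
Ifit1: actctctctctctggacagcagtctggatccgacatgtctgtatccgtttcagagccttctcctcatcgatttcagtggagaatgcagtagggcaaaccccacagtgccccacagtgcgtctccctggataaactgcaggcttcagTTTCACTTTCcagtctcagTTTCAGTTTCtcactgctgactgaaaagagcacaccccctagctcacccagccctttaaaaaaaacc
Isg15, a ubiquitin-like modifier, has 3 overlapping matches 78 to 66 bases before its start and stood at 2.69, 1.37 and 2.19 against 4.50, 9.41 and 10.0 CPM (-1.94 ± 0.52, adjusted p = 0.0038). Ifit1, a sensor of foreign RNA, stood at 3.64, 12.1 and 18.8 against 19, 50.5 and 35.4 CPM (-1.64 ± 0.50, adjusted p = 0.0088), a wide spread within both groups. Both were chosen for printing after their values were seen.

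Set against the label of dendritic cell, Flt3 and MHC class II genes were abundant in both tissues, while several genes that define the conventional subsets were low. Flt3, the growth factor receptor of DCs, stood at 611, 485 and 539 CPM in lymph node and 310, 298 and 340 CPM in marrow (0.79 ± 0.21, adjusted p = 0.0038). It was chosen after its values were seen. Itgax, the gene of CD11c, was at 208, 207 and 164 against 99.9, 63.0 and 12.5 CPM (1.73 ± 0.52, adjusted p = 0.0085), and its call ended without the libraries numbered 2 (adjusted p = 0.099). Of 18 cDC1 genes, 8 were towards lymph node and 4 towards marrow (median 0.75). Those 4 were Irf8, Itgae, Gcsam and Cd36 (-0.84, -1.99, -2.54 and -2.75), named here after their values were seen. The summed level of the list was nonetheless higher in marrow, at 1396 to 1573 CPM against 1168 to 1353 CPM in lymph node. Defining members were low: Xcr1 stood at 5.54, 3.81 and 5.48 against 0.205, 0.768 and 0 CPM (3.84 ± 0.65). Clec9a, chosen after its values were seen, was at 2.53, 2.90 and 2.41 against 0, 0.192 and 0 CPM. Cd8a was higher, at 100, 51.6 and 69.2 against 14.5, 8.26 and 12.5 CPM (2.65 ± 0.32). Of 16 cDC2 genes, 10 were towards lymph node and 4 towards marrow (median 1.44). Those 4 were Il1r2, Clec10a, Mgl2 and Irf4 (-2.79, -1.39, -0.96 and -0.81), named here after their values were seen. Cd4 stood at 51.9, 40.0 and 28.5 against 1.02, 1.34 and 1.07 CPM (5.10 ± 0.57), and Clec12a, an inhibitory lectin, at 34.0, 54.1 and 50.0 against 3.89, 1.73 and 1.79 CPM (4.23 ± 0.37). Itgam, the gene of the gated CD11b, was at 24.1, 39.5 and 23.7 against 6.35, 7.68 and 4.65 CPM (2.23 ± 0.31), and Cd24a, the gene of the marrow gate's CD24, at 44.6, 25.8 and 34.6 against 165, 168 and 232 CPM (-2.43 ± 0.32). These last values follow the gates in direction. In the other DCs, whose gates as given above name neither CD11b nor CD24, Itgam differed by -1.43 and Cd24a by -2.99. The part of the gates in these values was not tested.

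Transcription factors and growth factor receptors of the DC lineage separated the tissues in named members. Nfil3, a factor of lymphoid and cDC1 development, stood at 13.9, 11.1 and 14.9 CPM in lymph node and 338, 291 and 300 CPM in marrow (-4.55 ± 0.21, adjusted p = 2.3e-12). Nr4a3, an orphan nuclear receptor linked to DC migration, was at 79.0, 47.7 and 55.9 against 754, 710 and 930 CPM (-3.71 ± 0.26). Zeb2 and Cebpa, factors of myeloid and cDC2 development, went towards lymph node with 1.81 ± 0.19 and 2.04 ± 0.24, as did the GM-CSF receptor gene Csf2ra with 239, 267 and 270 against 80.4, 70.7 and 54.4 CPM (1.92 ± 0.15). In all, 11 of 35 DC transcription factors were towards lymph node and 12 towards marrow (median -0.13, which was 0.03 with library size alone), and 9 and 3 of 17 receptor and precursor genes. The adhesion list had 8 of 24 towards lymph node and 11 towards marrow, among them the integrin Itgb3 at 37.8, 62.8 and 32.9 against 687, 641 and 549 CPM (-3.80 ± 0.33) and the junction protein F11r at 72.6, 60.3 and 58.7 against 5.32, 6.92 and 6.44 CPM (3.35 ± 0.22). Cdh1, which encodes E-cadherin and was listed among epithelial genes, stood at 3.17, 2.90 and 1.97 against 136, 180 and 205 CPM (-5.98 ± 0.45).

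Lists of plasmacytoid, progenitor and early lymphoid genes tilted towards marrow AGF+ cells. Of 18 plasmacytoid genes, 12 were towards marrow and 3 towards lymph node (median -1.44). Tcf4, the factor that specifies plasmacytoid cells, stood at 281, 318 and 288 CPM in lymph node and 977, 1019 and 1207 CPM in marrow (-1.85 ± 0.15), and Ly6d, a surface protein of lymphoid-primed cells, at 0.317, 1.98 and 1.97 against 21.1, 40.9 and 20.2 CPM (-4.28 ± 0.48). Spib, another factor of that branch, did not pass at 315, 229 and 234 against 246, 246 and 216 CPM (adjusted p = 0.65), and was chosen after its values were seen. Of 20 tested progenitor genes, 13 were towards marrow and 2 towards lymph node (median -1.85). Erg, an ETS factor of stem cells, had 15.4, 15.6 and 22.4 CPM in marrow and counts in 1 lymph node library, a ratio of 156 (interval 42.9 to 1297), and Meis1, a homeobox factor of stem cells, stood at 21.7, 38.7 and 27.2 against 142, 175 and 179 CPM (-2.50 ± 0.19). In the V(D)J recombination and early B list, 8 of 12 tested were towards marrow and 3 towards lymph node. Next to Dntt, Rag1 had 3.28, 6.15 and 5.37 CPM in marrow against 0.158, 0.305 and 0 in lymph node, a ratio of 28.9 (interval 9.54 to 143), and the Wnt pathway factor Lef1 differed by -4.21 ± 0.72. Vpreb1, Vpreb2 and Igll1, the surrogate light chain genes of pre-B cells, were at 0 in lymph node.

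Levels of other cell types' markers moved with several of these results, and their part in them was not tested. In T and NK genes the summed level was 39.8 to 50.0 CPM in lymph node and 337 to 424 CPM in marrow, where Thy1 alone stood at 193, 305 and 314 CPM against 1.27, 1.98 and 3.72 (-6.92 ± 0.77). In the full list 3 of 19 were towards lymph node and 5 towards marrow, Ncr1 was at 0 in both tissues and Cd2 in marrow, and Cd3e of the T cell receptor complex stood at 0, 0.192 and 0.537 CPM in marrow. B cell genes summed to 114 to 177 CPM in lymph node and 276 to 325 CPM in marrow, with 6 of 14 towards lymph node and 5 towards marrow. The kinase gene Blk was at 0.158, 1.37 and 1.75 against 103, 107 and 86.6 CPM (-6.54 ± 0.44). Plasma cell genes summed to 271 to 330 against 696 to 706 CPM (0 of 9 towards lymph node, 6 towards marrow, Mzb1 at 0 in both). Monocyte and macrophage genes summed to 605 to 781 CPM in lymph node and 294 to 413 in marrow, with 9 of 20 towards lymph node and 3 towards marrow. Lyz2 stood at 236, 329 and 214 against 50.2, 19.2 and 21.8 CPM (3.10 ± 0.41) and the mannose receptor gene Mrc1 at 8.39, 3.51 and 1.97 against 90.1, 63.4 and 94.7 CPM (-4.11 ± 0.47).

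Innate lymphoid genes summed to 445 to 514 CPM in lymph node and 806 to 928 in marrow, with 4 of 14 towards lymph node and 5 towards marrow. Il17a was at 0 in both. Tnfsf11, the gene of the RANK ligand, had 18.8, 24.6 and 27.4 CPM in marrow and a ratio of 207 (interval 57.0 to 1719) over lymph node. The 4 towards lymph node were Itgb8 (2.40), Zbtb16 (2.36), Lta (1.83) and Ccr6 (0.52). All of these but Itgb8 were chosen after their values were seen. The erythroid list summed to 22.6 to 25.5 against 172 to 209 CPM, with all 5 tested genes towards marrow, but the globin genes Hba-a1 and Hba-a2 were at 0 in both tissues. Neutrophil genes summed to 15.5 to 17.1 against 17.5 to 103 CPM, epithelial genes to 9.30 to 13.3 against 145 to 211 (mostly Cdh1), and stromal genes to 51.9 to 74.7 against 147 to 193 CPM. In the eosinophil and mast cell list, 1 of 8 was towards lymph node and 5 towards marrow, at 18.6 to 22.3 against 34.4 to 81.3 CPM. The gene towards lymph node was Siglecf (log2 fold change 2.19). Of 3 tested platelet genes none passed.

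**Figure D3:**
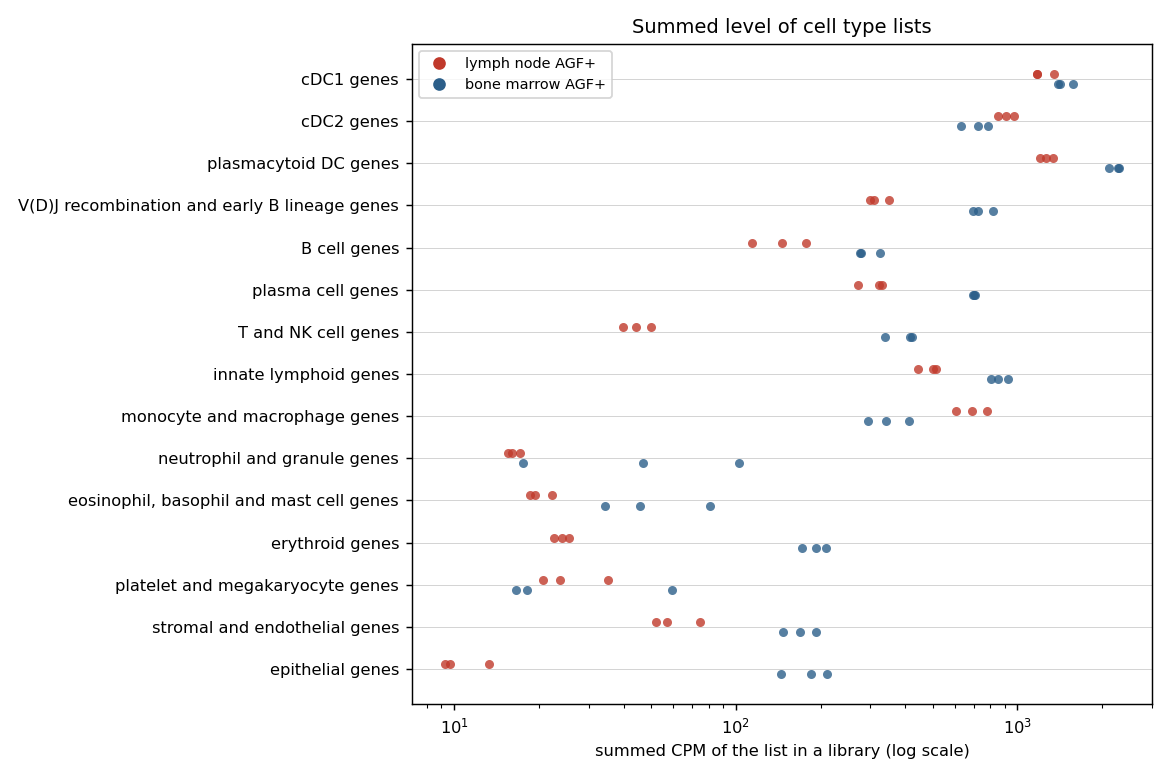
Summed CPM of 15 cell type lists in each library, on a log scale. T and NK, erythroid and epithelial sums are higher in all 3 marrow libraries, and monocyte and macrophage sums are higher in all 3 lymph node libraries.

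Most of these calls were also made in AGF+ cells of AireKO mice, which share no library with the KI/+ cells. There 4436 genes were towards lymph node (2879 without the libraries numbered 2) and 4439 towards marrow (51.4% of those tested). Of the 4694 genes towards lymph node in KI/+, 3722 were also called in AireKO, which is 79.3% of the first list and 83.9% of the second, and of those towards marrow 3869 were, 82.8% and 87.2%. Only 1 gene was called in opposite directions. The difference between the genotypes' tissue differences passed for 0 genes (0%) by edgeR, with 456 at an unadjusted p under 0.05, and for 0 by DESeq2 (383 unadjusted) and 0 by limma voom (1724 unadjusted). Without a filter on low counts 17 genes passed. These counts do not show that the genotypes act alike. Dntt averaged 0.112 ± 0.194 CPM in lymph node and 65.4 ± 11.7 in marrow of AireKO mice, Ccl17 6.28 ± 2 and 536 ± 30.8, and Ankrd34a 125 ± 8.46 and 0.0852 ± 0.148 (SD, n = 3).

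The other DCs, reporter-negative in lymph node and sorted without regard to the reporter in marrow, differed between the tissues in a partly different set of genes. Lymph node AGF- cells against marrow total DCs gave 9692 calls (56.1%). Of the genes towards lymph node in AGF+ cells, 2953 (62.9%, and 59.4% of the other list) were shared, and of those towards marrow 3059 (65.5% and 64.8%), while 181 and 317 genes went in opposite directions. The difference between the tissue differences passed for 3620 genes (21%), 1684 more towards lymph node in AGF+ cells and 1936 more towards marrow, and these counts were 593 and 1190 without the libraries numbered 2.

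Several lymphoid and signalling genes led that comparison, higher in marrow than in lymph node AGF+ cells and higher in lymph node AGF- cells than in marrow total DCs. Blk, a kinase of B and plasmacytoid cells, averaged 98.9 ± 10.9 CPM in marrow AGF+ cells and 1.10 ± 0.833 in lymph node AGF+ cells, against 5.18 ± 2.30 in marrow total DCs and 56.3 ± 15.2 in lymph node AGF- cells (SD, n = 3). Its tissue difference was -6.54 ± 0.44 in AGF+ and 3.45 ± 0.36 in other DCs (edgeR, adjusted p of the difference = 3.9e-10). Mef2c, a factor of lymphoid and myeloid differentiation, averaged 562 ± 127 and 82.4 ± 15.3 CPM in marrow and lymph node AGF+ cells, and 10.6 ± 3.63 and 141 ± 31.6 in the others. Its tissue differences were -2.77 ± 0.21 and 3.73 ± 0.25. Dntt again differed, at 0.140 ± 0.121 CPM in marrow total DCs and 7.96 ± 4.09 in lymph node AGF- cells. Siglech, a plasmacytoid lectin chosen after its values were seen, was at 82.4 ± 0.763 and 8.77 ± 2.07 CPM in marrow and lymph node AGF+ cells and at 8.02 ± 4.90 and 117 ± 70.7 in the others. Of the 18 plasmacytoid genes, 14 were towards lymph node in the other DCs. For 16 the difference between the tissue differences passed, each towards marrow in AGF+ cells, beside 21% of all genes in either direction. Lists of B cells (14 of 14) and T and NK cells (17 of 19) were towards lymph node in the other DCs, whose summed B cell level was 490 to 1120 CPM in lymph node against 68.1 to 83.7 in marrow. The part of these markers in the comparison was not tested.

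**Figure D4:**
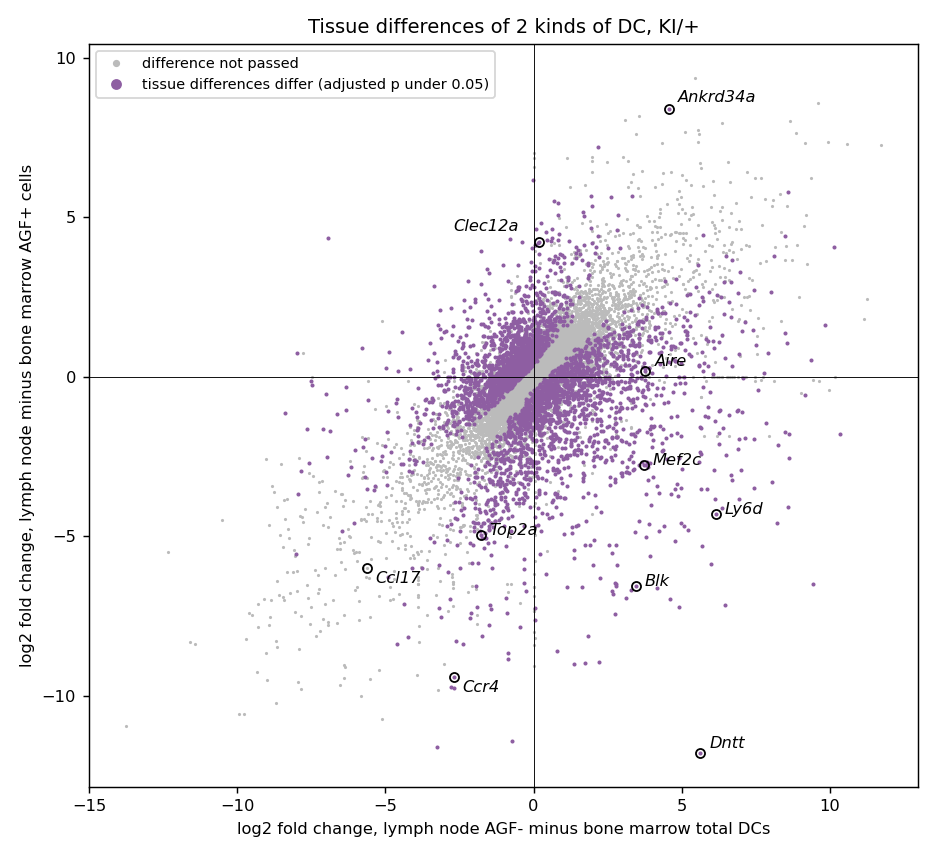
Log2 fold change between the tissues for each gene in AGF+ cells (vertical) and in other DCs (horizontal), with genes whose 2 differences differ (adjusted p under 0.05) in purple. Ccl17 lies near the diagonal, Blk, Mef2c and Ly6d are lower in lymph node only on the vertical axis, and Clec12a is high only on it. Values of genes at 0 counts in a group, such as Dntt, depend on the fit and are no bound.

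Aire differed by tissue in the other DCs and did not pass in AGF+ cells. Its tissue difference was 3.78 ± 0.30 in the other DCs and 0.17 ± 0.17 in AGF+ cells (adjusted p of the difference = 5.1e-07). AGF+ cells were sorted on the Aire reporter in both tissues, while other DCs were reporter-negative in lymph node and unselected in marrow. The sort thus bears on these values of Aire, and they are no independent result. Ripor2 was similar in pattern, at 87.7 ± 3.95 and 77.3 ± 7.59 CPM in the AGF+ groups and 146 ± 35.1 and 2.72 ± 0.156 in lymph node AGF- cells and marrow total DCs (SD, n = 3). Of 14 genes listed as lymph node AGF+ reporter genes, a list taken from earlier results of these libraries and so no independent evidence, 9 were towards lymph node, 1 towards marrow and 4, Aire among them, did not pass (median 1.62). Tcte1, a testis-expressed gene of that list, stood at 84.7, 70.0 and 76.7 CPM in lymph node and at 17, 9.03 and 8.59 in marrow (2.75 ± 0.25), and the protease gene Pappa2 at 50.3, 39.5 and 67.3 against 11.9, 7.68 and 7.69 CPM (2.53 ± 0.34). Prg2, an eosinophil granule protein, was the exception at 10.6, 7.93 and 5.26 against 44.0, 20.9 and 14 CPM (-1.70 ± 0.40).

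**Figure D5:**
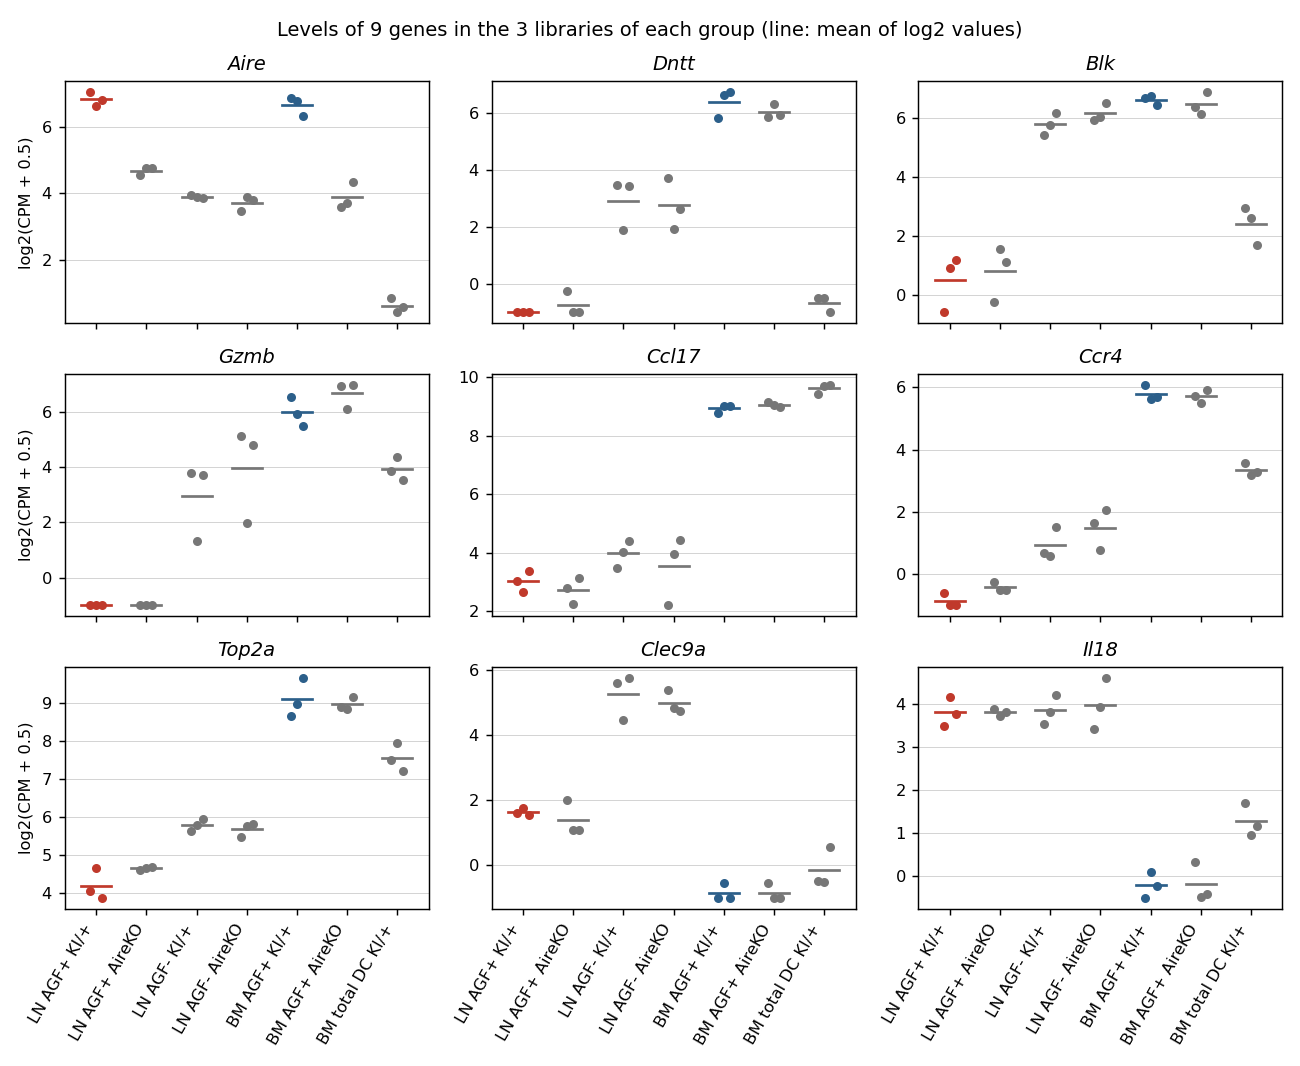
Levels of 9 genes in the 3 libraries of each of the 7 groups, on a log2(CPM + 0.5) axis, with lymph node AGF+ KI/+ in red and marrow AGF+ KI/+ in blue. Aire is high in both, Dntt, Gzmb, Ccl17, Ccr4 and Top2a are high in marrow AGF+ cells of both genotypes, and Blk is high in marrow AGF+ and lymph node AGF- cells.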

How the data were processed

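RNA was sequenced from sorted DCs in 21 libraries, of which 6 are compared here. Per the labels' protocols, Ovation SoLo libraries were built from 1 ng of RNA (integrity number above 7) and sequenced paired-end at 150 bp. The submitters' processing notes name STAR 2.7.3a and HTSeq 0.11.2, with fastp 0.20.0 and Picard 2.21.1, as well as SAMtools 1.9, edgeR 3.38.1 and the build mm10. Neither the annotation release nor the strand setting nor the treatment of reads mapping to several genes is given in the sources used here, so overlapping and antisense genes cannot be told apart. The deposited table holds raw counts per gene for 55471 genes. GENCODE vM21 gave no symbol for 327 of these, which hold 0.0139% of all counts.

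The counts were tested in R 4.3.3 with edgeR 4.0.16, by its quasi-likelihood test, in a single fit of all 21 libraries and their 7 group means. TMM scaling and filterByExpr were used, and calls have a Benjamini-Hochberg adjusted p below 0.05. SEs were derived from the log2 fold change and its F value. For a group with 0 counts a fold is a bound over a floor of 3 counts for the group, and for 1 to 3 counts a ratio with an exact 95% counting interval. Lists are given by counts and median, not tested.

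The members and the 43 gene lists were chosen with earlier results of these data known. Genes are named by rule: Aire, then the 12 largest rises and 12 largest falls. These were taken from calls that are 2-fold or more and reach a mean log2 CPM of 3 over all 21 libraries. They also had to separate the replicates, and predicted genes, pseudogenes and antigen receptor segments were left out. The rule adds up to 4 called members of each list by smallest p, gate genes, defining markers, and 6 genes per test of a difference of tissue differences. A gene outside it is marked in the text as picked after its values were seen. Some genes that the rule names are not reported here. Promoter windows come from a RefSeq table on GRCm38.p6, which held 11041 of 17231 tested genes with a unique symbol.

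The alternatives were a replicate block, the size factors and the Wald test of DESeq2 1.42.0, scaling by library size alone, 2 other filters on low counts (none, or 10 counts in 3 libraries), voom with sample weights in limma 3.58.1, a fit of only the groups compared, glmTreat at 1.5-fold, offsets for length and GC, and fits without each library or without those numbered 2. The fit was tested on simulated counts. Python 3.11.15 was used with pandas 2.3.3, numpy 2.4.6 and scipy 1.17.1, and matplotlib 3.10.9 drew the figures.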

Additional observations from a re-analysis of the deposited data

Results flagged for a closer look

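The tissue differences of AGF+ cells and of other DCs differed in 1684 genes towards lymph node in AGF+ cells and in 1936 genes towards marrow, by a test of the difference itself (edgeR quasi-likelihood test, adjusted p under 0.05). The 6 genes with the smallest p among those of sufficient level were all more towards marrow in AGF+ cells. For Blk the difference of log2 fold changes was -9.99, for Ppp1r16b -5.94, for Mef2c -6.50 and for Ripor2 -5.55. For Fam167a it was -6.53 and for Lax1 -12.82, where the last rests on a mean of 0.0685 CPM in marrow total DCs and depends on the fit. Ppp1r16b, a regulator of protein phosphatase 1, stood at 15.7, 14.5 and 20.2 CPM in lymph node AGF+ cells and 520, 505 and 490 CPM in marrow AGF+ cells. It averaged 72.4 CPM in lymph node AGF- cells and 35.8 in marrow total DCs. Fam167a stood at 2.06, 2.29 and 1.75 against 34.6, 46.1 and 36.7 CPM. Summed B cell markers moved with these genes in the AGF- and AGF+ sorts, and their part was not tested.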

How the results depend on the processing

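The counts towards lymph node and marrow were 4694 and 4671 in AGF+ KI/+ cells. They ranged from 3806 to 4282 and from 4254 to 4650 when 1 library was left out, and were 3332 and 3885 without the libraries numbered 2. Leaving out 1 library gave 3600 to 3956 and 3987 to 4313 in AireKO, 4143 to 4852 and 4212 to 4806 in other DCs, 0 to 0 in both directions for the difference by genotype, and 1258 to 1777 and 1606 to 2120 for the difference between AGF+ and other DCs. A test against a 1.5-fold change (glmTreat) asks for a larger effect and left 2466 and 2750 genes in KI/+, 2156 and 2633 in AireKO, 3013 and 2640 in other DCs, and 650 and 1183 for the difference between AGF+ and other DCs. Without the libraries numbered 2, 2879 genes were towards lymph node in AireKO, and the difference between AGF+ and other DCs had 593 and 1190 calls, with fewer samples fitted. With no filter on low counts, 35464 genes were tested and the difference by genotype had 12 and 5 calls, for which the cause was not tested. Library size alone moved the median of all genes by 0.16, so that 59.9% of calls in KI/+ were towards lymph node instead of 50.1%, and 65.1% instead of 51.3% in other DCs. The labels do not say that a replicate number marks shared animals, although the library numbered 2 has high Xist in all 7 groups. The deviations of same-numbered libraries correlated at 0.130, 0.114 and -0.0076 in AGF+ KI/+ cells, where lymph node replicate 3 correlated best with marrow replicate 1. They correlated at 0.0710, 0.151 and 0.0508 in AireKO and at 0.160, 0.0458 and 0.134 in other DCs. There each lymph node library correlated best with the marrow library of its own number. The main fit has no term for the replicate number, so any such pairing is ignored in it. With the replicate number as a block there were 4935 and 4924 calls in KI/+. Of 3006 values of 177 named genes under the alternatives, 2980 kept their direction and side of the threshold, 25 values of 11 genes no longer passed, 1 now passed (Cd74 with length and GC offsets, -0.39, adjusted p = 0.0052) and 0 reversed. Cxcr2 and H2-Ab1 lost their calls under the most alternatives. Depth limits low genes, since a gene at 0 in a library can stand at up to 0.657 CPM.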

Other observations

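Lists not described above were also read by counts, each beside 27.2% of all genes towards lymph node and 27.1% towards marrow. Of 19 MHC class I and peptide loading genes, 8 were towards lymph node and 5 towards marrow (median log2 fold change 0.16). With length and GC offsets 5 were towards lymph node with a median of -0.0023, and 3 were towards marrow with library size alone or without the libraries numbered 2. H2-D1, a class I heavy chain, stood at 1804, 1656 and 1680 CPM in lymph node and 1081, 1059 and 852 CPM in marrow (0.78 ± 0.13), while Pdia3, a disulphide isomerase of the loading complex, stood at 92.7, 123 and 96.6 against 215, 289 and 310 CPM (-1.38 ± 0.18). Of 15 chemokine receptors, 3 were towards lymph node and 8 towards marrow (median -0.85). Cxcr5, which guides cells to follicles, stood at 9.97, 3.81 and 5.70 against 36.8, 39.0 and 36.0 CPM (-2.51 ± 0.36), and Cx3cr1, the fractalkine receptor, at 11.9, 9.46 and 13.6 against 1.02, 0.961 and 0.716 CPM (3.66 ± 0.55). Of 21 lectin and scavenger receptors, 8 were towards lymph node and 5 towards marrow. Fcer1g, the signalling chain shared by several Fc receptors, stood at 150, 185 and 176 against 25.8, 24.0 and 20.8 CPM (2.86 ± 0.20).

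Of 23 lysosome and protease genes, 5 were towards lymph node (3 without the libraries numbered 2) and 4 towards marrow (median -0.06, which was 0.10 with library size alone). Of 17 chemokine ligands, 3 were towards lymph node and 4 towards marrow (median -0.96). Ctsl, a cysteine protease, stood at 4.75, 7.17 and 8.33 against 73.7, 101 and 92.9 CPM (-3.74 ± 0.41), and its inhibitor Cst3 at 229, 147 and 211 against 1213, 1011 and 825 CPM (-2.38 ± 0.22). Tfeb, a factor that raises lysosomal genes, was opposite, at 52.4, 33.3 and 36.6 against 10.8, 13.3 and 11.5 CPM (1.78 ± 0.25). Receptors linked to interleukin signals were also in named groups: Il23r stood at 5.86, 2.44 and 3.51 against 40.3, 27.1 and 25.9 CPM (-2.97 ± 0.49), Il1r1 at 66.8, 60.1 and 48.0 against 262, 322 and 324 CPM (-2.37 ± 0.20), and Il5ra at 0.158, 0.305 and 0.219 against 5.12, 7.30 and 6.98 CPM (-4.68 ± 0.62).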
